A study of Mus musculus with 12 samples.

Results

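The level of 10 genes grouped as endothelial was followed across 12 libraries of mouse epididymal white fat. They were the transcription factor genes Sox18, Sox7, Sox17, Gata2 and Erg, the genes Apold1 and Tmem88b, and the cell junction genes Cldn5, Pecam1 and Cdh5. They are 10 of 27179 genes in the count table and were found by symbol. All 10 are protein-coding, and all were among the 16175 genes that passed the low-count filter. Gene positions are those of RefSeq in GRCm38.p6. The 10 genes had been picked with the difference between epinephrine and saline already known, so that difference is given here as a description and with no p-value, and where a call by the fit over all genes is named for them it supports nothing. Their levels are set beside Pecam1 and Cdh5 as the yardstick for endothelial content.

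The fat pads came from male C57BL/6J mice on chow. Of these, 6 received epinephrine by intraperitoneal injection at 0.5 mg/kg and 6 received saline (vehicle), in the morning, and the pad was taken 1 h later. The listed ages were 18 to 23 weeks for epinephrine mice and 12 to 17 weeks for vehicle mice, with each of the 12 samples listed as 1 week older than the one before it. Whether this sequence records true ages is uncertain, and as listed, age and treatment cannot be told apart. RNA was taken from whole tissue and no cells were sorted, so the cells that carried each transcript were not identified.

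SoxF factors (Sox7, Sox17 and Sox18) are related DNA-binding proteins that act partly in each other's place when blood and lymph vessels form. Erg, of the ETS family, and Gata2, a zinc finger factor also used by blood progenitors, mast cells and adipose progenitors, help to keep endothelial genes on. Endothelial cells hold together through claudin-5 (Cldn5) in tight junctions, VE-cadherin (Cdh5) in adherens junctions and PECAM-1 (Pecam1), which platelets and white blood cells also carry. Apold1 is known as an immediate early gene of endothelial cells, and Tmem88b encodes a transmembrane protein.

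RefSeq windows of 250 bases before an annotated start (GRCm38.p6) were held for 5 of the 10 genes: Apold1, Cldn5, Erg, Gata2 and Tmem88b. Entries for Sox18, Sox7, Sox17, Pecam1 and Cdh5 were missing from the table. The windows of 3 genes are printed because, of the genes with an entry, they had the largest absolute log2 fold changes, 2 higher and 1 lower with epinephrine. They are the plus strand of chr6:134981751-134982000 for Apold1, the plus strand of chr16:18776597-18776846 for Cldn5 and the minus strand of chr4:155785875-155786124 for Tmem88b, each 5′ to 3′. Capitals mark every match to 10 searched motifs.
Apold1: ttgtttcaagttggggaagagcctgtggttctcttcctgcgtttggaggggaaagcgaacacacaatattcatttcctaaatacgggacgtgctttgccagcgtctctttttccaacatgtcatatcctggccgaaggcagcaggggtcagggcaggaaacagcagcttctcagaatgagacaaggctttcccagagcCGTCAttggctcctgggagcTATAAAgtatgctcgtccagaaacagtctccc
Cldn5: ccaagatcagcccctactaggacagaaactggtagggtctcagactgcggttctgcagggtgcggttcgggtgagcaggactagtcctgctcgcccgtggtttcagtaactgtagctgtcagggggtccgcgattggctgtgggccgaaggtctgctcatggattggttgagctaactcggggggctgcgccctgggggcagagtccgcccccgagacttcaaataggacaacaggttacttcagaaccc
Tmem88b: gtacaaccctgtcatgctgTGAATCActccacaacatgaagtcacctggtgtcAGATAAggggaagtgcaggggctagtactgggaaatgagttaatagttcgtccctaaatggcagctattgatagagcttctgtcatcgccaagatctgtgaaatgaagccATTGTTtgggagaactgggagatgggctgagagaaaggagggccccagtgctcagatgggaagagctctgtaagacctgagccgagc

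All motifs were searched on both strands, and the share of all 32851 windows in the table that held each is given beside it. In the Apold1 window the capitals are a cAMP response element half-site (TGACG), 52 to 48 bases before the start, and a TATA box (TATAAA), 32 to 27 bases before it. Of all windows 17.8% held that half-site and 12.4% held that TATA box. The Tmem88b window held an AP-1 site (TGANTCA; 6.75% of all windows) 231 to 225 bases before the start. It also held a GATA site (AGATAA; 9.99% of all windows) at 197 to 192 bases and a SOX site (AACAAT, here on the other strand; 9.42% of all windows) at 87 to 82 bases. None of the 10 motifs lay in the Cldn5 window. The full cAMP response element (TGACGTCA), which contains the half-site, was held by 1.55% of all windows and by none of the 5 genes. Nor did those 5 hold a pair of heat shock element units (GAANNTTC; 6.69% of all windows), an ETS site (CGGAAG; 13.6% of all windows), the E-box (CACGTG; 6.02% of all windows) or the CArG box (1.47% of all windows).

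Libraries held 24821601 to 34405433 assigned reads. Markers of the labelled tissue were present: adipocyte markers took 2.02% to 4.28% of counts in epinephrine and 1.61% to 4.77% in vehicle libraries, and endothelial identity genes 0.146% to 0.271% and 0.125% to 0.284%. Transcripts of the epididymis set 3 libraries apart: in epinephrine 1 and 2 and in vehicle 2 the epididymal gene Gpx5 exceeded 0.5% of counts. Pecam1 and Cdh5 were lowest in the same 3, with mean log2 CPM (CPM, counts scaled to a common library size with TMM factors) of 7.19, 7.66 and 7.07, against 7.98 to 8.36 in the other 9. The levels of the genes set beside Pecam1 and Cdh5 are therefore also given without these 3 libraries or relative to both markers of the same library. For genes of the lists, values without these 3 libraries are given only where stated. In whole tissue, fewer cells of a type and less RNA per cell cannot be told apart.

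Across all 16175 genes, 6.23% were called by edgeR's quasi-likelihood test at an adjusted p under 0.05, 2.65% higher and 3.58% lower with epinephrine. In 4.79% the CPM of the groups did not overlap (2.04% higher, 2.74% lower), as was so for Apold1 above and Sox18 and Gata2 below the vehicle range. That share holds for CPM. On the scale relative to Pecam1 and Cdh5, used below, the share of all genes whose groups separate was not computed. Of the 10 genes, Apold1 and Cldn5 were called higher and Sox18, Tmem88b and Gata2 lower, and Sox7, Sox17, Erg, Pecam1 and Cdh5 were not called. Nothing is read from this count, since the genes were chosen on the same difference. With the replicate number as a block, 2.38% of all genes were higher and 2.26% lower. The number of lower genes, 579, was 353 without vehicle 1, 364 without vehicle 3, 276 without vehicle 4, 362 without epinephrine 3, 314 without epinephrine 4 and 373 without epinephrine 5. It was 414 without vehicle 5, 445 without vehicle 6, 401 without epinephrine 2 and 451 without epinephrine 6. It rose to 587 without vehicle 2 and to 797 without epinephrine 1.

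**Figure D1:**
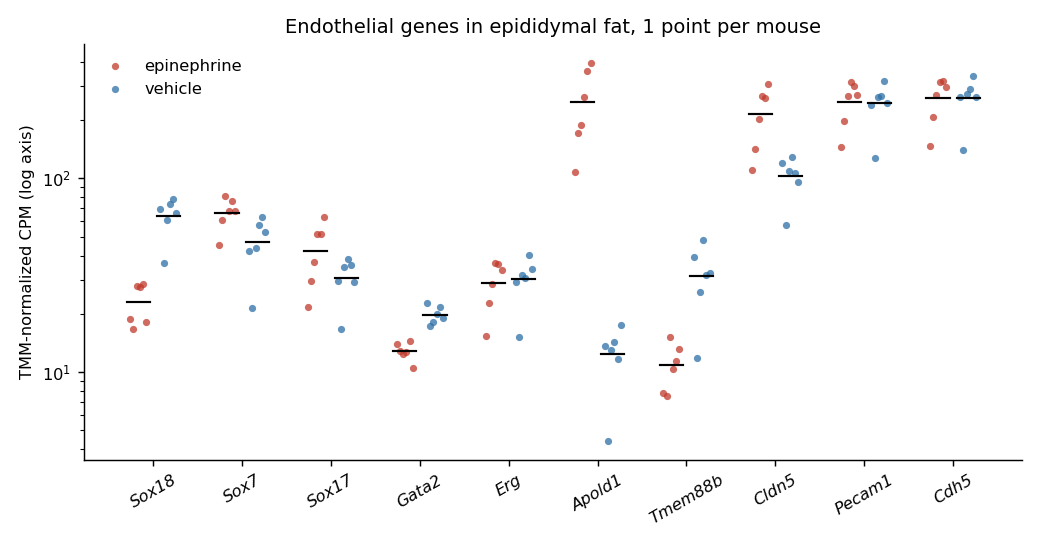
TMM-normalized CPM on a log axis for the 10 genes, with 1 point per mouse (epinephrine red, left; vehicle blue, right) and a bar at the arithmetic mean of each group. Points of Sox18, Gata2 and Apold1 do not overlap between groups, while those of Erg, Pecam1 and Cdh5 lie over the same range.

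The endothelial yardsticks had nearly the same level in both groups. Pecam1 (chr11:106654213-106715281) ranged from 145 to 313 CPM (median 269) with epinephrine and from 128 to 320 CPM (median 255) with vehicle. Its means were 249 ± 64.9 and 244 ± 63.5 CPM (SD, n = 6 each), a log2 fold change of 0.03 (SE 0.23). Cdh5 (chr8:104101613-104144504) ranged from 148 to 318 CPM (median 284) with epinephrine and from 140 to 338 CPM (median 268) with vehicle, with a log2 fold change of -0.01 (SE 0.23). For both genes the groups overlapped over almost their whole range. The 95% interval of the log2 fold change ran from -0.42 to 0.48 for Pecam1 and from -0.46 to 0.43 for Cdh5, which is how closely this spread fixes the level of the yardsticks.

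Sox18, a SoxF gene of blood and lymphatic endothelium that is mutated in the ragged mouse, was lower with epinephrine. The gene (chr2:181669837-181671640) ranged from 16.6 to 28.4 CPM (median 23.2) with epinephrine and from 36.5 to 78.2 CPM (median 67.9) with vehicle. The means were 22.9 ± 5.60 and 64.1 ± 14.8 CPM (SD, n = 6 each), a log2 fold change of -1.49 (SE 0.20). All 6 epinephrine libraries lay below all 6 vehicle libraries, including vehicle 2, the lowest of its group. Relative to Pecam1 and Cdh5 of the same library, Sox18 stood at -3.45 ± 0.34 log2 units with epinephrine and -1.97 ± 0.11 with vehicle (SD, n = 6 each), a difference of -1.49 (SE 0.15) that equals 0.356-fold. The vehicle libraries kept to a narrow band on this scale, -2.14 to -1.86, vehicle 2 included, while the epinephrine libraries spread from -3.97 to -2.95. Without the 3 libraries high in Gpx5 the difference relative to the markers was -1.54.

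The other SoxF genes did not share that direction. Sox7 (chr14:63943706-63950732) ranged from 45.2 to 80.8 CPM (median 68.0) with epinephrine and from 21.3 to 62.9 CPM (median 48.5) with vehicle, and the groups overlapped. Its log2 fold change was 0.51 (SE 0.23). Relative to Pecam1 and Cdh5 the groups separated, at -2.20 to -1.70 log2 units with epinephrine and -2.65 to -2.26 with vehicle, a difference of 0.55 (SE 0.11). This difference was unequal between replicate numbers. The fitted log2 fold change of Sox7 minus that of the markers was 0.88 among numbers 1 to 3 and 0.22 among numbers 4 to 6, a contrast that was not tested. All 3 libraries high in Gpx5 are among numbers 1 to 3. Replicate number and library makeup therefore cannot be told apart, here or for other genes split this way.

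Sox17, a SoxF gene best known from arterial endothelium and endoderm (chr1:4490928-4497426), ranged from 21.8 to 63.1 CPM (median 44.2) with epinephrine and from 16.7 to 38.3 CPM (median 32.2) with vehicle. The groups overlapped, with a log2 fold change of 0.47 (SE 0.27). Relative to the markers it stood at -2.62 ± 0.25 log2 units with epinephrine and -3.04 ± 0.13 with vehicle (SD, n = 6 each), and the groups overlapped at their edges, in 1 epinephrine library. Numbers 1 to 3 gave 0.21 and numbers 4 to 6 gave 0.61 for the fitted difference relative to the markers, the opposite order to Sox7.

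Counted per kilobase of gene length, Sox18 and Sox7 changed places, and Sox17 had the lowest mean share in both groups. Sox18 made up 29.7% ± 5.03 of SoxF reads per kilobase with epinephrine and 62.5% ± 2.50 with vehicle (SD, n = 6 each). The ranges were 21.4% to 36.0% with epinephrine and 60.3% to 65.7% with vehicle, far apart. Sox7 took 42.7% ± 3.97 and 22.1% ± 2.34, and Sox17 27.6% ± 6.50 and 15.4% ± 1.44 (epinephrine, then vehicle; SD, n = 6 each). The SoxF sum was 48.1 ± 10.1 CPM per kilobase with epinephrine and 63.8 ± 15.7 with vehicle (SD, n = 6 each). Among 13 Sox genes tested, Sox18 ranked second in level per kilobase behind Sox7 with epinephrine and first with vehicle, where Sox7 and Sox13 followed at 14.3 ± 4.52 and 13.4 ± 5.56 CPM per kilobase (SD, n = 6 each).

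Gata2 (chr6:88193891-88207032) was lower with epinephrine and varied least of the 10 genes. It ranged from 10.5 to 14.6 CPM (median 12.8) with epinephrine and from 17.4 to 22.7 CPM (median 19.4) with vehicle. The groups did not overlap, and the log2 fold change was -0.62 (SE 0.09). The coefficient of variation was 10.8% with epinephrine and 10.6% with vehicle, against 18.8% to 45.3% and 23.0% to 38.9% for the other 9 genes. Its level followed Pecam1 and Cdh5 less: epinephrine 1 and 2, poor in both, had 14.0 and 12.9 CPM, above the epinephrine median, while vehicle 2 had the lowest vehicle value. Relative to those markers its groups overlapped, at -4.74 to -3.38 log2 units with epinephrine and -3.91 to -2.94 with vehicle. Gata6, which many mesenchymal cells use, was the highest Gata gene per kilobase in both groups (10.3 ± 2.57 and 11.8 ± 3.72 CPM per kilobase; SD, n = 6 each), and Gata2 came next. Mast cell markers, the cells for which Gata2 is also known, took 0.00677% to 0.0131% of counts with epinephrine and 0.00893% to 0.0128% with vehicle, with none of the 9 at 0, and their part in the Gata2 level was not tested.

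Erg, the ETS factor gene (chr16:95359169-95586600), followed the markers almost exactly. It ranged from 15.4 to 36.8 CPM (median 31.1) with epinephrine and from 15.1 to 40.0 CPM (median 31.2) with vehicle. The groups overlapped, and the log2 fold change was -0.06 (SE 0.25, 95% interval -0.55 to 0.42). Relative to Pecam1 and Cdh5 it stood at -3.15 ± 0.08 log2 units with epinephrine and -3.07 ± 0.10 with vehicle (SD, n = 6 each), the narrowest band of any gene that was not itself a yardstick.

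Apold1, named for apolipoprotein L domain containing 1 (chr6:134982001-134986836), showed the widest difference of the 10. It ranged from 108 to 395 CPM (median 226) with epinephrine and from 4.41 to 17.5 CPM (median 13.3) with vehicle. The lowest epinephrine library thus lay well above the highest vehicle library. The log2 fold change was 4.32 (SE 0.40), or 19.9-fold, and 4.43 without the 3 libraries high in Gpx5. Of all tested genes, 99.95% had a smaller absolute log2 fold change. Per kilobase, Apold1 was last of the 10 genes with vehicle, at 3.78 ± 1.33 CPM per kilobase, and with epinephrine, at 75.3 ± 34.2, it stood beside Pecam1 at 75.3 ± 19.6 (SD, n = 6 each). An annotated long noncoding RNA, Gm36428, overlaps 1645 bases of Apold1 and has no row in the count table.

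Tmem88b (chr4:155781591-155785874) was lower with epinephrine. It ranged from 7.56 to 15.3 CPM (median 10.8) with epinephrine and from 11.8 to 48.0 CPM (median 32.0) with vehicle. Only vehicle 2, at 11.8 CPM, fell within the range of the epinephrine libraries. Relative to the markers the groups separated, at -4.92 to -4.14 log2 units with epinephrine and -3.50 to -2.53 with vehicle, a difference of -1.46 (SE 0.21). Its printed promoter window and that of Apold1 shared no motif of the 10.

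Cldn5, the tight junction gene (chr16:18776847-18778262), was higher with epinephrine. It ranged from 111 to 308 CPM (median 232) with epinephrine and from 57.3 to 129 CPM (median 108) with vehicle. The groups overlapped through epinephrine 1, at 111 CPM, one of the libraries high in Gpx5. Relative to Pecam1 and Cdh5 they did not overlap, at -0.50 to 0.12 log2 units with epinephrine and -1.62 to -1.07 with vehicle, and the difference was 1.01 (SE 0.12). The fitted difference relative to the markers was 0.75 among numbers 1 to 3 and 1.26 among numbers 4 to 6. Cldn5 was the highest of 16 claudin-family genes per kilobase in both groups, at 152 ± 54.3 CPM per kilobase with epinephrine and 72.9 ± 17.8 with vehicle (SD, n = 6 each).

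**Figure D2:**
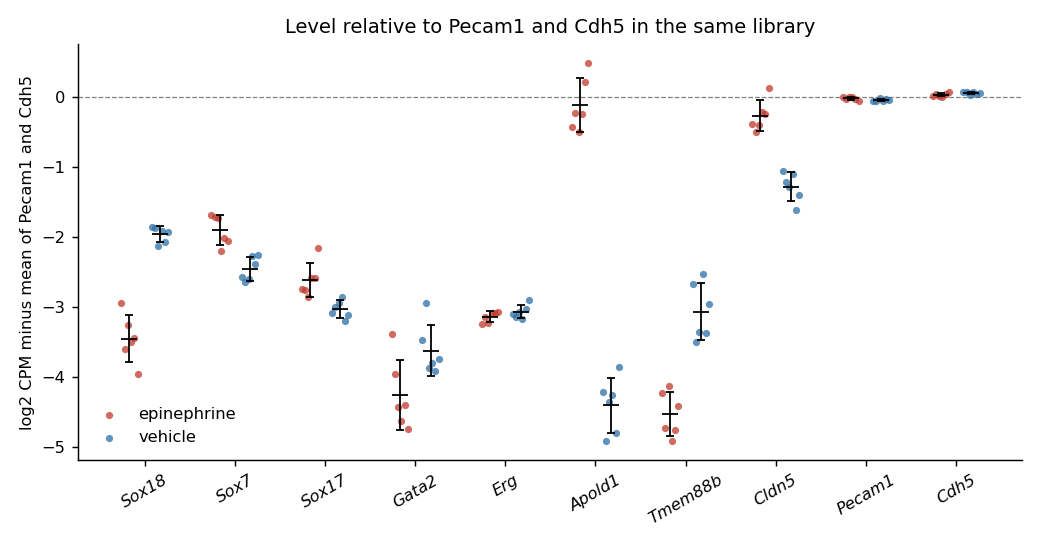
Log2 CPM of each gene minus the mean log2 CPM of Pecam1 and Cdh5 in the same library, with 1 point per mouse (epinephrine red, left; vehicle blue, right) and the mean ± SD of each group. Groups of Sox18, Sox7, Apold1, Tmem88b and Cldn5 separate on this scale, and Erg stays at about -3.1 in both. The share of all genes that separate on this scale was not computed, so nothing is read from the number of genes that do.

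In order of level per kilobase, the vehicle libraries put Pecam1, Cldn5 and Cdh5 first, then Sox18, then Sox7 and Erg, Sox17 and Tmem88b, Gata2 and last Apold1. Sox18 exceeded Sox7, and Cdh5 exceeded Sox18, in all 6 vehicle libraries. Pecam1 against Cldn5, Sox7 against Erg and Sox17 against Tmem88b each split 3 to 3, so these neighbours were not ordered. With epinephrine Cldn5 was first, above Pecam1 in all 6 libraries. Pecam1 lay above Cdh5 in all 6, Apold1 changed places with both between libraries, Sox7 exceeded Sox18 in all 6, and Sox17 and Erg split 3 to 3.

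Differences between mice of the same group were not used to choose the genes. There many of the 10 genes moved with other endothelial genes, but most correlations were lower once the 2 most extreme libraries were left out. Each of the 8 genes other than Pecam1 and Cdh5 was set against the mean log2 CPM of 24 other endothelial identity genes within each group of 6, which makes 16 relations. All permutation tests were exact and two-sided. By Pearson's r 7 of them passed at an adjusted p under 0.05, 4 with epinephrine and 3 with vehicle, and by Spearman's rho 1 passed. The share of all genes that would pass was not computed. The 90th percentile of r with the mean of Pecam1 and Cdh5 was 0.918 among 13559 genes, over deviations from the group means. High r is thus not particular to these genes. Erg with epinephrine had r = 0.992 (exact permutation p = 0.00139, the lowest that 6 libraries allow; adjusted over the 16 relations, 0.0222) and rho = 1.00 (exact p = 0.00278, adjusted p = 0.0444). Leaving out the 2 libraries with the most extreme endothelial mean gave r = 0.927 over 4. Of the 16 relations, 2 kept an r over 0.9 when this was done.

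Sox7 with vehicle had r = 0.996 (exact permutation p = 0.00278, adjusted p = 0.0222), rho = 0.943 (exact p = 0.0167, adjusted p = 0.0889), and r was 0.986 once the 2 most extreme libraries were left out. Sox18 differed between the groups in this respect as values: with vehicle r was 0.982 (exact permutation p = 0.00694, adjusted p = 0.0311) and rho 0.943 (exact p = 0.0167, adjusted p = 0.0889), and with epinephrine r was 0.655 (exact permutation p = 0.206, adjusted p = 0.219) and rho 0.486 (exact p = 0.356, adjusted p = 0.474). The difference between those 2 correlations was not tested. With those left out, r of Sox18 was 0.272 with epinephrine and 0.667 with vehicle.

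The other relations that passed by r were those of Sox17 (r = 0.923), Apold1 (0.869) and Cldn5 (0.950) with epinephrine and of Erg with vehicle (0.975). Their adjusted p were 0.0311, 0.0381, 0.0311 and 0.037 by exact permutation, and rho (0.829, 0.771, 0.829 and 0.714) did not pass. With the extremes left out, which are epinephrine 1 and 2 and vehicle 2 and 5, r was 0.458, 0.343, 0.475 and 0.272. Fewer libraries over a narrower range tend to give a lower and less certain r. Whether these relations rest on the extreme libraries therefore cannot be decided from this. Gata2 had r = -0.311 with epinephrine (exact permutation p = 0.546, adjusted p = 0.546) and 0.624 with vehicle (exact permutation p = 0.178, adjusted p = 0.203). Tmem88b had r = 0.709 with epinephrine (exact permutation p = 0.125, adjusted p = 0.154) and 0.881 with vehicle (exact permutation p = 0.0625, adjusted p = 0.1). With the extremes left out, r of Tmem88b was -0.998 with epinephrine and 0.652 with vehicle. Sox7 with epinephrine had r = 0.869 (exact permutation p = 0.0292, adjusted p = 0.0583), and -0.58 with the extremes left out. Under library size scaling the relations of Apold1 and of Erg with vehicle no longer passed (adjusted p = 0.063 and 0.075 by exact permutation). Against the mean of Pecam1 and Cdh5 in place of the list, Sox7 with epinephrine and Sox17 with vehicle also passed (r = 0.89 and 0.959). Library makeup moved with these values, since epinephrine 1 and 2 and vehicle 2 are the libraries high in Gpx5.

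**Figure D3:**
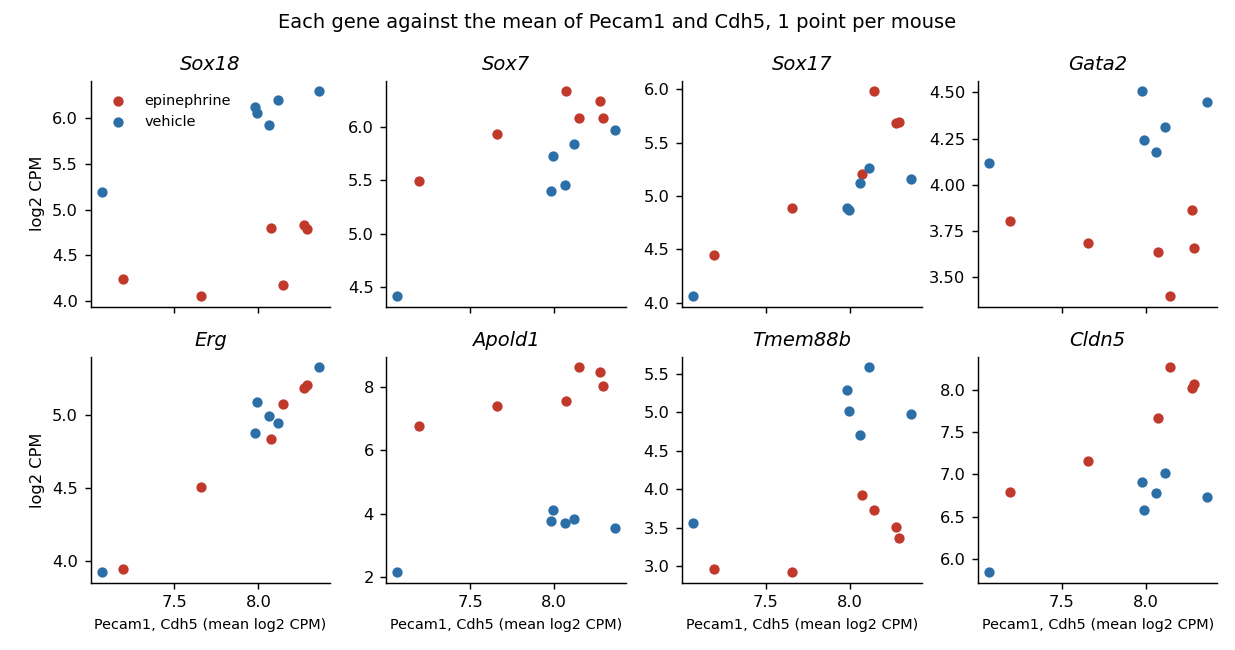
Log2 CPM of 8 genes (y axes) against the mean log2 CPM of Pecam1 and Cdh5 (x axis), with 1 point per mouse, epinephrine red and vehicle blue. Points of Erg form a single line through both groups, those of Apold1, Cldn5 and Sox18 form separate bands, and those of Gata2 show no slope that the groups share.

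Genes most like each pattern were named by the highest Pearson r of deviations from the group means over the 12 libraries, among 13559 genes, as a description. For the mean of Pecam1 and Cdh5 they were Coq6 (r = 0.994), Cdh13 (0.993), Mmrn2 (0.993), Tie1 (0.992) and Cyp4b1 (0.989), of which Mmrn2 and Tie1 are endothelial identity genes. The patterns of Sox18 and Apold1 drew other genes. For Sox18 they were Unc13a (0.970), Tpcn2 (0.940), Hyal2 (0.935), Mall (0.933) and Kctd21 (0.932), and for Apold1 Csgalnact2 (0.966), the connexin gene Gjc1 (0.964), Dipk2a (0.959), Aldh3b1 (0.957) and Sirt5 (0.956). High correlations were common in these libraries, with 10% of the 13559 genes above 0.748 for Sox18, 0.867 for Apold1 and 0.918 for the markers. The 99th percentile of r was 0.854 for Sox18, 0.929 for Apold1 and 0.970 for the markers, and all the named genes lay above it.

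The rest of the endothelial programme was examined through lists of other genes. These lists were chosen with earlier results of these data known, so the shares called are descriptions. Of 24 endothelial identity genes, Cd93 was higher and none was lower (4.17% called, against 6.23% of all tested genes), and the median log2 fold change was 0.00, as for all tested genes. Cd93, which encodes a lectin-like receptor of endothelial and myeloid cells, averaged 235 ± 61.9 CPM with epinephrine and 129 ± 28.9 CPM with vehicle (SD, n = 6 each), a log2 change of 0.87 (SE 0.22; adjusted p = 0.0376 by edgeR). Its call ended without any 1 of 9 libraries (vehicle 1, 3, 4, 5 or 6 and epinephrine 3, 4, 5 or 6), with adjusted p between 0.0529 and 0.0893. Without the 3 libraries high in Gpx5, Cd93, Rasip1 and S1pr1 were higher and Clec14a was lower (log2 fold changes 0.97, 0.55, 0.66 and -0.72; edgeR adjusted p = 2.40e-05, 0.0021, 0.0112 and 0.00972). Calls were also more frequent over all genes in that setting, with 786 higher and 1028 lower of 16134 tested. The vascular growth factor receptor gene Kdr, at 154 ± 42.7 CPM with epinephrine and 170 ± 46.5 CPM with vehicle, and the angiopoietin receptor gene Tek, at 70.9 ± 19.0 and 78.4 ± 21.1 CPM (SD, n = 6 each), did not pass (edgeR adjusted p = 0.874 and 0.879).

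Among 24 other endothelial transcription factor genes, 3 were higher and 1 lower (16.7% called, against 6.23% of all tested genes), with a median log2 fold change of -0.09. Ets2, an ETS factor gene, averaged 177 ± 40.0 CPM with epinephrine and 90.9 ± 11.9 CPM with vehicle (SD, n = 6 each), a log2 change of 0.96 (SE 0.16; adjusted p = 0.00398 by edgeR), and its groups did not overlap. Bcl6b, a zinc finger repressor gene, averaged 61.4 ± 15.8 and 27.6 ± 6.31 CPM in epinephrine and vehicle libraries (SD, n = 6 each), a log2 change of 1.16 (SE 0.21; adjusted p = 0.00745 by edgeR). Klf4, a Krüppel-like factor gene, had a log2 change of 1.08 (SE 0.24; adjusted p = 0.0216 by edgeR), and its call ended without epinephrine 4, 5 or 6 (adjusted p between 0.0503 and 0.0552). The lower gene was Nr2f2, a factor of venous endothelium, at 42.4 ± 4.32 CPM with epinephrine and 53.1 ± 4.37 CPM with vehicle (SD, n = 6 each), a log2 change of -0.33 (SE 0.08; adjusted p = 0.0311 by edgeR). The Nr2f2 call ended without any 1 of 7 libraries (vehicle 1, 3, 4, 5 or 6 and epinephrine 3 or 4), with adjusted p between 0.0605 and 0.0801. Erg's relative Fli1 did not pass (log2 change -0.08, SE 0.24; adjusted p = 0.94 by edgeR). Without the 3 libraries high in Gpx5, where more of all genes were called, Klf2 was also higher and Lyl1 also lower. Their log2 changes were 0.73 and -0.58 (edgeR adjusted p = 0.003 and 0.0162).

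Of 26 junction genes other than Cldn5, Vcl, which links adherens junctions to actin, and Nectin2, an adhesion protein gene, were higher and none was lower, with a median log2 fold change of 0.00. With all libraries kept, the share called, 7.69%, was near the 6.23% of all tested genes. Vcl had a log2 change of 0.46 (SE 0.11; adjusted p = 0.0299 by edgeR) and Nectin2 of 0.26 (SE 0.07, edgeR adjusted p = 0.0461). The Vcl call ended without any 1 of 7 libraries (vehicle 1, 3 or 6 and epinephrine 3, 4, 5 or 6), with adjusted p between 0.0565 and 0.0757. That of Nectin2 ended without any 1 library but vehicle 2 (0.0535 to 0.134) and with the replicate block (0.119), and without vehicle 2 the list had 4 higher and 1 lower. No other claudin-family gene passed of 15 tested (10 more did not reach the filter; 0 also by DESeq2, by limma-voom and at an unadjusted p under 0.05), the smallest p being that of Cldn22 (log2 change -0.59, SE 0.37; adjusted p = 0.499 by edgeR). Without the 3 libraries high in Gpx5, the junction genes Ctnnd1, Nectin2 and Vcl were higher (log2 changes 0.20, 0.29 and 0.56) and Cgnl1, Gja5 and Pcdh12 lower (-0.35, -0.65 and -0.37). More genes were called there in general, 786 higher and 1028 lower of 16134 tested. Cldn2 and Cldn3, the next in level per kilobase, had SDs above their means in both groups.

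Targets reported for SoxF factors and Erg in other work did not pass edgeR's test, and these lists share genes with each other and with the identity list. Of 6 reported SoxF targets 0 were called (1 at an unadjusted p under 0.05; 0 by DESeq2, 1 by limma-voom), and Prox1, the lymphatic factor gene that Sox18 switches on in the mouse embryo, was at 2.31 ± 0.33 CPM with epinephrine and 1.41 ± 0.67 CPM with vehicle (SD, n = 6 each), a log2 change of 0.72 (95% interval 0.11 to 1.32; adjusted p = 0.255 by edgeR). Of 8 reported Erg targets 0 were called (0 also at an unadjusted p under 0.05, by DESeq2 and by limma-voom), the smallest p being that of Rhoj (log2 change 0.28, SE 0.22; adjusted p = 0.624 by edgeR; 0.00987 without the 3 libraries high in Gpx5). Of 10 other Sox genes, Sox8 was lower, at 0.65 ± 0.20 CPM with epinephrine and 1.89 ± 0.69 CPM with vehicle (SD, n = 6 each), a log2 change of -1.54 (SE 0.27; adjusted p = 0.00578 by edgeR), with no overlap between groups. Without the 3 libraries high in Gpx5, Sox11 was higher (log2 change 0.51; adjusted p = 0.0275 by edgeR). None of 4 other Gata genes passed, by DESeq2 and limma-voom likewise, Gata4 having the smallest p (edgeR adjusted p = 0.706).

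Genes that endothelial and other stromal cells switch on under stress were examined as a list of 20. This list too was chosen with earlier results of these data known, so its share is a description and supports nothing. Of these, 5 (25.0%) were higher, against 2.65% of all tested genes, and none was lower, with a median log2 fold change of 0.56, against -0.00 over all tested genes. The matricellular genes Ccn1 and Ccn2 averaged 626 ± 295 and 86.4 ± 33.7 CPM with epinephrine and 51.5 ± 20.3 and 30.9 ± 5.37 CPM with vehicle (SD, n = 6 each; edgeR adjusted p = 0.000345 and 0.00342). Adamts1, a matrix protease gene, was 5.14-fold higher (log2 change 2.36, SE 0.31; adjusted p = 0.000903 by edgeR). Klf4, described above, was also among them. Without the 3 libraries high in Gpx5, 9 of the 20 were higher, Plat, Angpt2, Klf2 and Ackr3 among them, against 786 of all 16134 genes tested there. The adhesion gene Vcam1 had a log2 change of -0.36 (SE 0.34; adjusted p = 0.706 by edgeR), and Sele, at 1.00 ± 0.91 CPM with epinephrine and 1.23 ± 1.24 CPM with vehicle (SD, n = 6 each), of -0.30 (SE 0.72, edgeR adjusted p = 0.927).

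**Figure D4:**
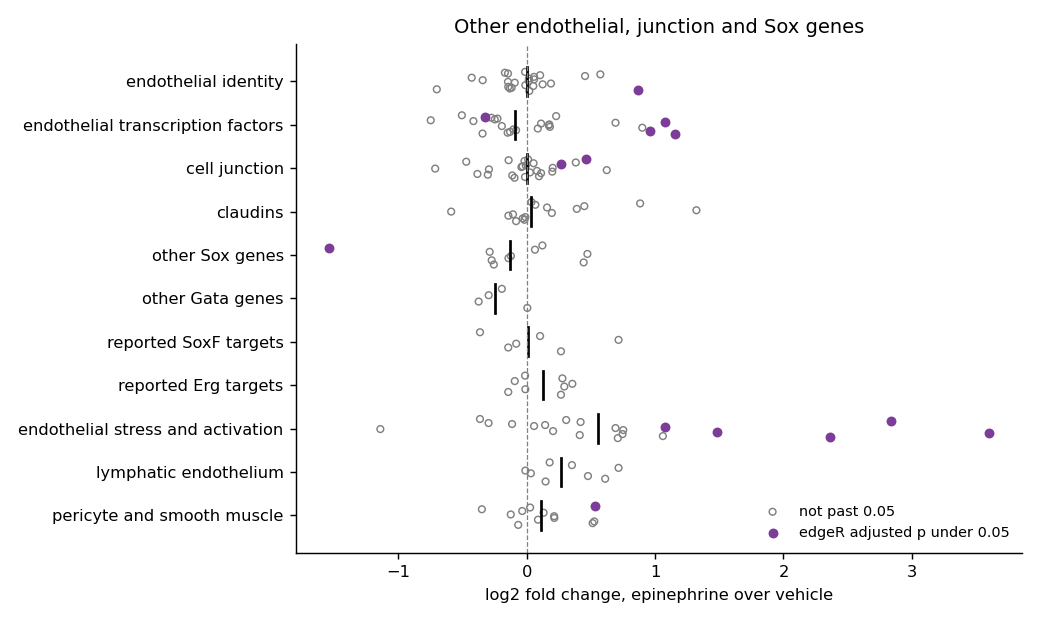
Log2 fold change, epinephrine over vehicle, of single genes (points) in 11 lists that hold none of the 10 genes. Filled points passed edgeR's test at an adjusted p under 0.05, black bars are list medians, and the median of the stress and activation list, 0.56, lies farthest from 0.

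Markers of other cells changed little as lists. Of 8 tested lymphatic endothelial markers 0 passed by edgeR (2 at an unadjusted p under 0.05; 0 by DESeq2, 3 by limma-voom; Prox1 had the smallest p; Lyve1 passed without the 3 libraries high in Gpx5; median log2 fold change 0.27), and of 12 pericyte and smooth muscle markers Tagln was higher (136 ± 14.1 CPM with epinephrine and 94.2 ± 13.6 CPM with vehicle; SD, n = 6 each; edgeR adjusted p = 0.0123). No gene passed among 12 adipocyte, 12 macrophage, 4 platelet, 9 mesothelial, 10 fibroblast and progenitor and 12 epididymal markers, whose smallest p were those of Cfd, Fcgr1, Gp1bb, Lrrn4, Pdgfra and Lcn5 (edgeR adjusted p = 0.69, 0.238, 0.72, 0.574, 0.664 and 0.895). At an unadjusted p under 0.05 there was 1 gene, a macrophage marker, in these 6 lists, and DESeq2 called 0 and limma-voom 1. Without the 3 libraries high in Gpx5 the macrophage marker Mertk was higher (log2 change 0.30; adjusted p = 0.0163 by edgeR). Platelet markers, which bear on Pecam1, took 0.00407% to 0.00588% of counts with epinephrine and 0.0038% to 0.00547% with vehicle, and macrophage markers 0.0897% to 0.233% and 0.104% to 0.208%, with none of either list at 0 in every library. Of 8 mast cell markers Hdc, which makes histamine, was higher (20.5 ± 6.61 CPM with epinephrine and 9.03 ± 1.55 CPM with vehicle; SD, n = 6 each; edgeR adjusted p = 0.00753).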

How the data were processed

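Libraries were made with a SMARTER mRNA-Seq kit from total RNA of each fat pad, per the labels' protocols. Reads were trimmed, aligned and counted with tools that the submitters' processing notes list as cutadapt, HISAT2 and featureCounts, beside FastQC, DESeq2 and mm10. Strand setting and annotation were not given in the sources used here, so reads of overlapping genes on opposite strands may not be told apart (Gm38708 overlaps Gata2 and Gm29682 overlaps Cdh5). The authors deposited whole-number counts per gene with gene lengths in bases, and a table of variance-stabilized values on a log2-like scale, which served as an alternative. Of the rows, 1312 carry no symbol (0.253% to 0.315% of counts) and were kept.

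Genes were filtered with filterByExpr (minimum count 10, minimum total 15), scaled by TMM and tested with edgeR 4.0.16 (glmQLFit, robust; glmQLFTest) in R 4.3.3 over all 16175 genes, with Benjamini-Hochberg adjustment and a threshold of 0.05. SE is the unshrunk log2 fold change divided by the square root of F, and a prior count of 1 was added for log2 CPM. The code was tested on simulated data. Permutations were exact (scipy 1.17.1). Intervals are 95% normal intervals from the SE. The alternatives used DESeq2 1.42.0, limma 3.58.1, other scalings and filters, a replicate block and left-out libraries.

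The 10 genes and the lists were chosen with earlier results of these data known. The text names the 10 genes, every list gene past the threshold (up to 6 per list) or else that with the smallest p (1 gene is not reported here), and the 5 genes most like each of 3 patterns (average log2 CPM 1 or more). Kdr, Tek, Fli1, Vcam1, Sele, Icam1, Selp, Cldn2, Cldn3, Gata6, Sox13, Rasip1, S1pr1, Clec14a, Ctnnd1, Plat, Angpt2, Klf2, Ackr3, Cgnl1, Gja5, Pcdh12, Lyve1, Lyl1, Sox11 and Mertk were named after their values were seen. Mice are separate animals per the labels. Same-numbered libraries deviated together in all 6 pairs (correlations 0.262 to 0.799), and the numbers come from the titles, but only 3 of 12 libraries correlated best with their own number. No 2 of 66 library pairs held identical counts.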

Additional observations from a re-analysis of the deposited data

Results flagged for a closer look

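Vehicle 2 lay apart from the other 5 vehicle libraries in 8 of the 10 genes, being the lowest by a gap of 0.632 to 0.715 of the group's range of log2 CPM, past Dixon's limit for 6 samples. Its values were 5.19 for Sox18, 4.42 for Sox7, 4.06 for Sox17, 3.92 for Erg, 2.15 for Apold1, 5.84 for Cldn5, 6.999 for Pecam1 and 7.13 for Cdh5. Chance alone puts about 1 group in 20 past that limit, and 20 groups were examined, but the 8 genes share this library. In vehicle 2 the epididymis list took 4.73% of counts, the highest of the 12 libraries, and its part in these low values was not tested. Relative to Pecam1 and Cdh5 of the same library, vehicle 2 lay inside the range of the other vehicle libraries for Sox18, Sox17, Erg and Cldn5, and was still the lowest for Apold1 (-4.91) and Sox7 (-2.65).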

How the results depend on the processing

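The directions of Sox18, Tmem88b, Gata2, Apold1 and Cldn5 held under all 12 alternatives and all 12 left-out libraries. Sox18 ranged from -1.59 to -1.17 in log2 fold change over the 12 alternatives, and from -1.58 to -1.41 when libraries were left out. On the variance-stabilized scale, which compresses low levels, the log2 fold change was 3.54 for Apold1 and -0.40 for Gata2. Relative to the markers that scale gave -1.20 for Sox18, 3.51 for Apold1 and -1.02 for Tmem88b. Replicate numbers 1 to 3 alone gave 0.88 for Sox7, 0.21 for Sox17 and 0.75 for Cldn5 relative to the markers, and numbers 4 to 6 alone 0.22 for Sox7. The cause was not tested, and numbers 1 to 3 include all 3 libraries high in Gpx5.

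Counts of all genes were 1448 lower under library size scaling, where the median of all genes shifted to -0.11. DESeq2 called 759 higher and 884 lower, and limma-voom with sample weights 1026 and 1503. Without the 3 libraries high in Gpx5 there were 786 higher and 1028 lower. Numbers 1 to 3 alone gave 0 higher and 0 lower by edgeR (1356 at an unadjusted p under 0.05) and numbers 4 to 6 alone 696 higher. The replicate block gave 365 lower, and among the list genes called it ended only that of Nectin2. Leaving out single libraries gave 276 to 797 lower genes. Endothelial identity genes numbered 3 higher and 1 lower under limma-voom and without the 3 libraries, 3 higher and 2 lower in numbers 4 to 6 alone, 0 higher in numbers 1 to 3 alone and with no filter, and 1 lower under library size scaling and DESeq2. With single libraries left out they ranged over 0 to 1 higher and 0 to 1 lower. With 6 mice a group, the SE of 0.23 for Pecam1 and Cdh5 limits how small a difference can be resolved.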
